A study of Mus musculus with 24 samples.

Results

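Loci bound by ARID1B and loci bound by FOXP1 were compared in mouse cortex at E18.5. The regions were all narrowPeak entries on chromosomes 1 to 19 of the E18.5 ARID1B list (67787 peaks) and the E18.5 FOXP1 list (24526 peaks), 92313 of the 315145 peaks in the 6 lists of the series. Peaks that shared at least 1 base were joined into 69362 loci, of which 46037 held ARID1B only, 3297 held FOXP1 only and 20028 held both. The ChIP-seq material was wild-type cortex of the outbred CD1 background, collected late in gestation at E18.5 with no mutant allele and no treatment in any group, and each transcriptional regulator (TR) had 2 ChIP and 2 input libraries. By the study's methods the replicates were merged before peaks were called, although the labels attach each list to its first replicate. Thus 1 list per TR was available, no replicate error could be given, and no test between the TRs was run. The 95% Wilson intervals below cover counting error only, and whether a library came from 1 embryo or several was not established. The cortex holds projection neurons, interneurons and progenitors together, so a peak belongs to no single cell type.

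ARID1B is a subunit of the BAF chromatin remodelling complex, which slides or ejects nucleosomes and carries no strict DNA sequence preference of its own. FOXP1 is a forkhead transcription factor that binds DNA directly through a winged-helix domain and is made in projection neurons of the cortex and in the striatum. Heterozygous loss of either gene is associated with autism and intellectual disability, which makes their shared and separate targets of interest.

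The lists differed in depth. Fold enrichment is the number of reads over a summit divided by the number expected there from the background, each with 1 added, and the pairs of fold enrichment and p-value gave a background of 6.13 reads per 200 bp for ARID1B and 2.81 for FOXP1. MACS2 scales the larger of ChIP and input to the smaller, and the FOXP1 ChIP reads carried a factor of 0.561, so the FOXP1 values are on the scale of a 26.3 M read library while the FOXP1 ChIP itself came to 46.9 M reads. The ARID1B ChIP carried no factor and came to 57.3 M reads. The weakest listed summit stood 2.94 times over background in the ARID1B list and 3.99 times in the FOXP1 list. A locus with ARID1B only therefore held no FOXP1 signal above the higher of these floors, which does not show that FOXP1 was absent. The FOXP1 list at E15.5, used below as a second readout, had a background of 6.90 reads and 63281 autosomal peaks. TCF7L2, the TR that the sample labels name TCF4, served as a further TR.

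Sequences of 200 bp centred on summits are shown for the peaks on which the results turn, all from the plus strand of the GRCm38 reference (RefSeq). The strongest distal ARID1B-only peaks are represented by a peak in an intron of Erbb4 at chr1:68305923-68306122 and one in an intron of Dach1 at chr14:98122994-98123193, with the E-box core CATCTG (or its complement CAGATG) in capitals. These hold places 1 and 4 by fold enrichment and were picked after the motif was seen in them, since the windows ranked between them, near Gm10192 and G6pd2, held no such core.
Erbb4: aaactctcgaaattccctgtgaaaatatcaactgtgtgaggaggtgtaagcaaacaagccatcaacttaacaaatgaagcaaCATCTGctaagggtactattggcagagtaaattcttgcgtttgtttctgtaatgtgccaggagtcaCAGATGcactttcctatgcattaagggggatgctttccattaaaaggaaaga
Dach1: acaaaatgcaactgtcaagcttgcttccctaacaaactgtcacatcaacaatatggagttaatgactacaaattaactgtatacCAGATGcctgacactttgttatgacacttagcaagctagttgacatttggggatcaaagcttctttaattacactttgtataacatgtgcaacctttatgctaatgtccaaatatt
The 4 strongest distal FOXP1-only peaks outside Foxp2 lay at chr14:107858498-107858697, chr11:36209934-36210133, chr15:99185687-99185886 and chr17:45139660-45139859, and a shared locus with a strong FOXP1 and a weak ARID1B peak lay at chr13:23453975-23454174. Their nearest protein-coding genes were Slitrk1, Wwc1, Kcnh3, Cdc5l and Btn1a1, and capitals mark tandem AAC or GTT triplets of at least 2 copies.
Slitrk1: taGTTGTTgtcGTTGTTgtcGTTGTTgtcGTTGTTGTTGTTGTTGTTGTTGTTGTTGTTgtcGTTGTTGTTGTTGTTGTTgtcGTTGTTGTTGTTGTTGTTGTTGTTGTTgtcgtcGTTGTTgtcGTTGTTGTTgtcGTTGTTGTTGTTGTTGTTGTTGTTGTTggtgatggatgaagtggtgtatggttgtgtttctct
Wwc1: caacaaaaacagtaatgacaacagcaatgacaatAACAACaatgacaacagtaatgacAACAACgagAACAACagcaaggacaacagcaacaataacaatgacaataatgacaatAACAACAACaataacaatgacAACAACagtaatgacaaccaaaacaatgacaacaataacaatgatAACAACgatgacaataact
Kcnh3: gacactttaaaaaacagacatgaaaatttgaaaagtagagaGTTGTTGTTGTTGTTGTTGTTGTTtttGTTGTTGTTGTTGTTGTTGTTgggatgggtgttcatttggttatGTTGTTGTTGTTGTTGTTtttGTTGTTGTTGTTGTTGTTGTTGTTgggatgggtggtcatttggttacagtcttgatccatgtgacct
Cdc5l: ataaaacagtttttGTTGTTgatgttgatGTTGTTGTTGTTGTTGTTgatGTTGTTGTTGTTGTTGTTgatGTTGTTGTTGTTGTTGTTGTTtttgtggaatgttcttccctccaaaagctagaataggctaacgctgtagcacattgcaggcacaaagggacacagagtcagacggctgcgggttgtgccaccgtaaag
Btn1a1: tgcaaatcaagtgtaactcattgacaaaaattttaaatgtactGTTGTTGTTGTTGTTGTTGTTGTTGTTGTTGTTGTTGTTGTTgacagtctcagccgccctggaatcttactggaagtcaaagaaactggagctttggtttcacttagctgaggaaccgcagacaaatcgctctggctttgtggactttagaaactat
A FOXP1-only peak near Zfp281 at chr1:136550993-136551192 held a match to the CTCF consensus, in capitals.
Zfp281: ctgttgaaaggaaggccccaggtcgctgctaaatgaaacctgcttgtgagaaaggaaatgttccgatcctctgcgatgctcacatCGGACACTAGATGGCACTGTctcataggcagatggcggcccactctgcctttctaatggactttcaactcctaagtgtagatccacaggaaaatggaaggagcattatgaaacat
A distal locus strong in both lists lay near Axin2 at chr11:109011748-109011947, with its 19 CpG dinucleotides in capitals.
Axin2: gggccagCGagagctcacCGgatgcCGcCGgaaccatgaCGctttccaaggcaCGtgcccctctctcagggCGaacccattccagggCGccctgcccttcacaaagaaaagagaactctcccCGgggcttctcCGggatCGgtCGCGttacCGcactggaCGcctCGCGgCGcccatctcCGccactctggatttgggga

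The FOXP1 list lay mostly inside the ARID1B list, and the reverse did not hold. Of FOXP1 peaks, 86.6% (21229 of 24526, 86.1 to 87.0%) overlapped an ARID1B peak, whereas 32.1% of ARID1B peaks (21750 of 67787, 31.7 to 32.4%) overlapped a FOXP1 peak. At shared loci the summits lay a median of 86 bp apart, 94 bp at promoters and 75 bp elsewhere. The share moved with peak height. Of ARID1B peaks in the strongest decile by p-value, 61.3% overlapped FOXP1, and in the weakest decile 9.90%. Of FOXP1 peaks the share with ARID1B was 96.4% in the strongest decile, 98.0% in the next and 76.1% in the weakest. The strongest FOXP1 decile thus did not have the highest share, and its unshared peaks are described with the FOXP1-only peaks below. With both lists limited to the same number of lowest-p peaks, 56.0% of FOXP1 peaks and 53.1% of ARID1B peaks were shared, and lists of equal size with mostly single pairs of peaks give similar shares by construction.

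**Figure D1:**
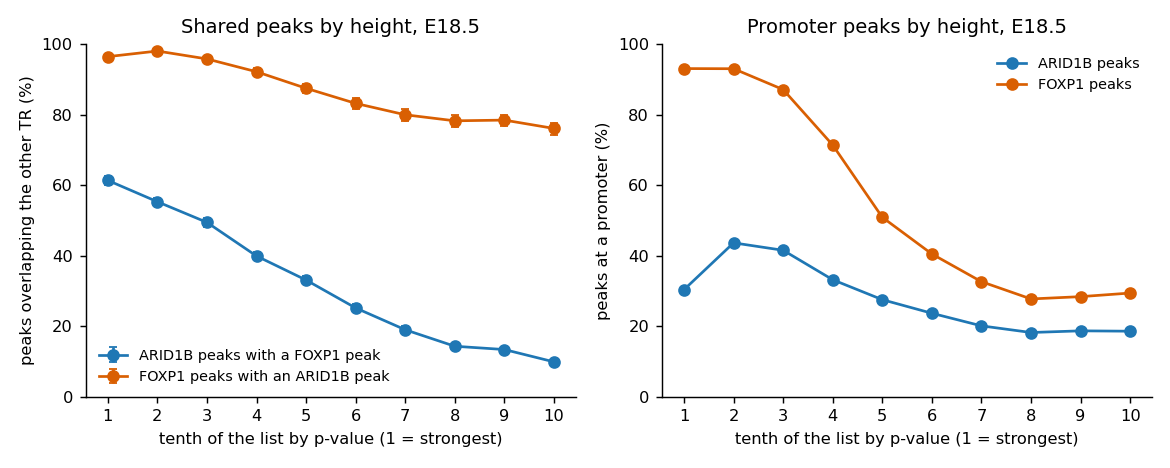
Share of peaks that overlapped the other TR (left, with 95% Wilson intervals) and share at a promoter (right), in %, by decile of p-value within each E18.5 list, decile 1 the strongest. ARID1B sharing runs from 61.3% to 9.90%, FOXP1 sharing stays between 76.1% and 98.0%, and the strongest FOXP1 decile was 93.0% promoter peaks.

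The classes lay in different parts of the genome. A promoter here is the 2000 bp upstream of any annotated transcription start site (TSS), and a locus was proximal if any base of it fell there and distal otherwise. Shared loci were proximal in 62.3% of cases (12482 of 20028, 61.6 to 63.0%), FOXP1-only loci in 22.5% (741 of 3297, 21.1 to 23.9%) and ARID1B-only loci in 11.6% (5351 of 46037, 11.3 to 11.9%). The unshared shares depended on the list thresholds. With both lists held to a −log10 p of 15 they were 70.1% for FOXP1 only and 13.3% for ARID1B only, and with equal numbers of lowest-p peaks 45.4% and 6.93%. Distal summits in introns made up 48.2% of ARID1B-only, 34.5% of FOXP1-only and 17.2% of shared loci. Intergenic distal summits made up 35.5%, 37.0% and 17.2%, in the same order. Distal summits over 100 kb from any TSS were most common among ARID1B-only loci, at 7.12% against 3.67% for FOXP1 only and 1.53% for both. The median distance of distal loci to the nearest protein-coding TSS was 57011 bp for ARID1B only, 30069 bp for FOXP1 only and 32261 bp for both.

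**Figure D2:**
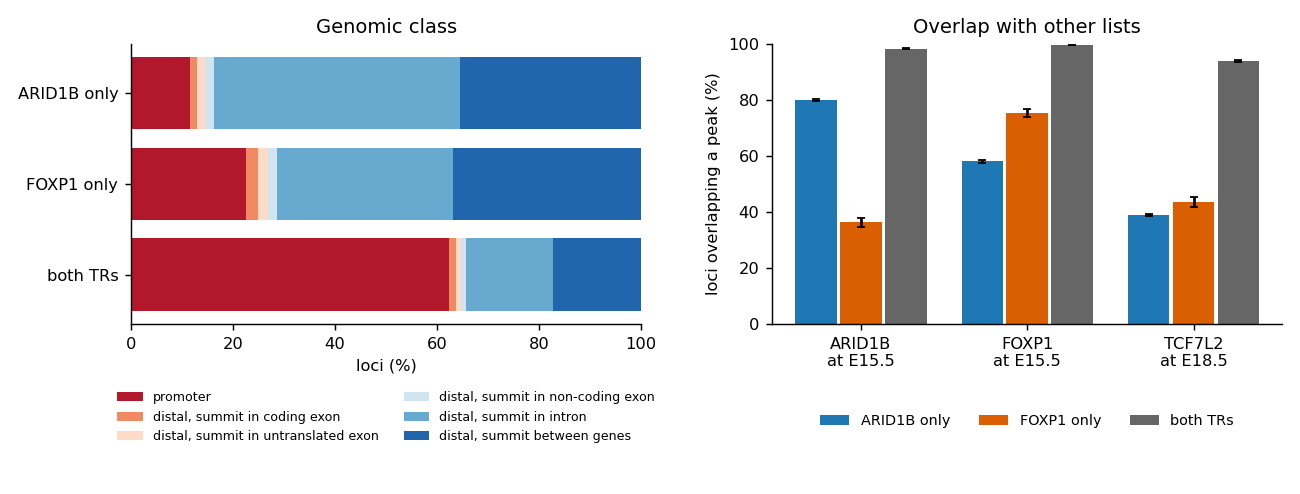
Left, genomic class of the loci of each overlap class, in % of loci. Right, share of the same loci (%, with 95% Wilson intervals) that overlapped a peak of ARID1B or FOXP1 at E15.5 or of TCF7L2 at E18.5. Shared loci were mostly promoters and nearly all recurred at E15.5, and ARID1B-only loci overlapped E15.5 FOXP1 peaks in 58.0% of cases.

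The E15.5 lists, which the classes did not use, overlapped most of these loci. Shared loci held an ARID1B peak at E15.5 in 98.2% and a FOXP1 peak in 99.6% of cases. Of ARID1B-only loci, 79.9% held ARID1B at E15.5 and 58.0% (57.6 to 58.5%) held FOXP1 at E15.5. Of FOXP1-only loci, 75.3% held FOXP1 at E15.5 and 36.3% (34.7 to 37.9%) held ARID1B. With the E18.5 lists held to a −log10 p of 15, ARID1B at E15.5 lay on 80.7% of FOXP1-only loci and FOXP1 at E15.5 on 89.5% of ARID1B-only loci. With equal numbers of peaks the shares were 76.8% and 85.3%, and at the FOXP1 floor 52.7% and 66.9%. TCF7L2 at E18.5 overlapped 39.0% of ARID1B-only, 43.5% of FOXP1-only and 94.0% of shared loci. Stage, depth and the embryos used differ together between the E18.5 and E15.5 lists and cannot be told apart.

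ARID1B-only loci were weak on the whole, with a strong distal tail. Their median fold enrichment was 3.93, against 5.33 for ARID1B peaks that overlapped FOXP1, and 25.5% (11745) reached a −log10 p of 15. They were also narrower, with a median width of 359 bp against 736 bp. The stronger the distal ARID1B-only peak, the more often a FOXP1 peak lay there at E15.5, in 41.3% of those with a −log10 p below 10, 57.5% from 10 to 15, 78.1% from 15 to 25, and 94.9% (3954 of 4165) at 25 or more. ARID1B itself was present at E15.5 at all 4165 of the latter. The 8 strongest distal ARID1B-only peaks each overlapped both an ARID1B and a FOXP1 peak at E15.5. The strongest lay in an intron of Erbb4, which encodes a neuregulin receptor, with an ARID1B fold enrichment of 24.7 at E18.5, 20.5 at E15.5, and a FOXP1 value of 7.85 at E15.5. Next were intergenic peaks near Gm10192 (22.0) and G6pd2 (20.6), and the Dach1 intron (20.1 at E18.5, 18.1 at E15.5, FOXP1 8.61 at E15.5). Peaks near Fat4, an atypical cadherin, Ankrd7, Cps1 and Dclk2, a doublecortin-like kinase, ranged from 18.8 to 19.8. The strongest ARID1B-only promoter peaks lay at 4930466K18Rik beside Mcm9 (21.6), at Lgals3, the galectin-3 gene (19.6), at Cfap61 (17.3) and at Herc3 (14.7). Others lay at Cmtr1, an mRNA cap methyltransferase (13.5), and at the predicted genes Gm14463 (14.03), Gm2861 (13.5) and Gm38337 (13.2). Each of the 8 strongest overlapped FOXP1 at E15.5, with fold enrichments of 5.82 to 11.6. FOXP1 at E15.5 lay on 72.2% of all ARID1B-only promoter loci and on 97.7% of those with a −log10 p of 25 or more.

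ARID1B-only windows were rich in an E-box. The hexamer CATCTG, the form bound by proneural bHLH factors, was counted on both strands in 200 bp windows at summits and in windows 3000 bp away. It occurred in 34.96% of ARID1B-only distal windows and in 15.4% of their offset windows. The share was 27.5% at shared distal loci and 13.4% at FOXP1-only distal loci, the latter below its offset value of 15.3%. It followed ARID1B height, being 28.1% of distal ARID1B-only windows at a −log10 p below 10, 36.6% from 10 to 15, 43.3% from 15 to 25 and 53.7% (2238 of 4165) at 25 or more. At ARID1B-only promoters the same bands ran from 20.1% to 54.3%. Of all protein-coding promoters, 10.1% of the 200 bp windows upstream of the TSS held it. The Erbb4 window printed above held 2 copies and the Dach1 window 1, and 6 of the 8 strongest peaks of each ARID1B-only set held at least 1. The homeobox core TAATTA showed the same order, in 11.7% of ARID1B-only, 5.43% of shared and 3.72% of FOXP1-only distal windows. Their offset windows held it in 6.78%, 5.84% and 5.59%, so only the ARID1B-only share stood above its offset value.

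FOXP1-only loci were few, and their strong members had 2 sequence features that were noticed after the sequences had been read. Their median fold enrichment was 4.68, and 13.5% (446) reached a −log10 p of 15. Overlap with ARID1B at E15.5 fell with FOXP1 height, from 43.2% at a −log10 p below 10 through 29.0% and 14.8% to 5.88% (8 of 136) at 25 or more. The first feature was a tandem repeat of AAC, or GTT on the other strand. An uninterrupted run of at least 12 bases lay within the 200 bp window of 27.8% of FOXP1-only peaks (917 of 3297, 26.3 to 29.4%), of 0.146% of ARID1B-only peaks (67 of 46037) and of 0.479% of shared loci (96 of 20028). Windows 3000 bp from the FOXP1-only summits held one in 0.394% of cases, and those 3000 bp from ARID1B-only summits in 0.550%. The share among FOXP1-only peaks was 11.9% at a −log10 p below 10, 49.4% from 10 to 15, 74.8% from 15 to 25 and 77.9% (106 of 136) at 25 or more. Of the 49 repeat units of 1 to 4 bases counted, AGC came next, at 4.93% of FOXP1-only peaks with a −log10 p of 15 or more against 75.8% (338 of 446) for AAC. With both lists held to a −log10 p of 15 the FOXP1-only class grows to 2115 peaks, while the whole FOXP1 list has 390 peaks of that height with a run, so the share in that larger class is far lower. Distal shared loci with a FOXP1 −log10 p of 25 or more held a run in 10.95% of cases (23 of 210).

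Run length went with FOXP1 occupancy across the genome. All 61281 runs of at least 12 bp on chromosomes 1 to 19 were taken whether or not a peak lay there. A FOXP1 peak at E18.5 overlapped 0.830% of runs of 12 to 17 bp, 1.85% of those of 18 to 23 bp, 6.66% of those of 24 to 35 bp and 28.9% (553 of 1913, 26.9 to 31.0%) of those of 36 bp or more. The FOXP1 list at E15.5 gave 1.26%, 1.51%, 3.56% and 9.78% for the same lengths. For ARID1B at E18.5 the shares were 0.735%, 0.666%, 0.452% and 0.575%, with no such order, and TCF7L2 at E18.5 overlapped between 0.432% and 0.545% of runs at every length. The E15.5 FOXP1 list, which is deeper, held runs in 2.02% of its 15475 peaks without ARID1B. The canonical forkhead core TGTTTAC, which an AAC run does not contain, was no more common at FOXP1-only distal summits (3.13%) than 3000 bp away (3.05%). It was found in 4.24% of ARID1B-only distal windows against 2.78% (2.62 to 2.94%) of their offset windows, in 3.51% of shared distal windows against 3.03%, and in 2.11% of all protein-coding promoter windows. Over whole classes, the larger excess over offset windows thus stood at loci where FOXP1 was not called at E18.5. Of these ARID1B-only distal loci, 56.2% held FOXP1 at E15.5. AAC runs lay in 34.0% of FOXP1-only distal windows (870 of 2556), and the core was not counted apart in windows without a run.

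**Figure D3:**
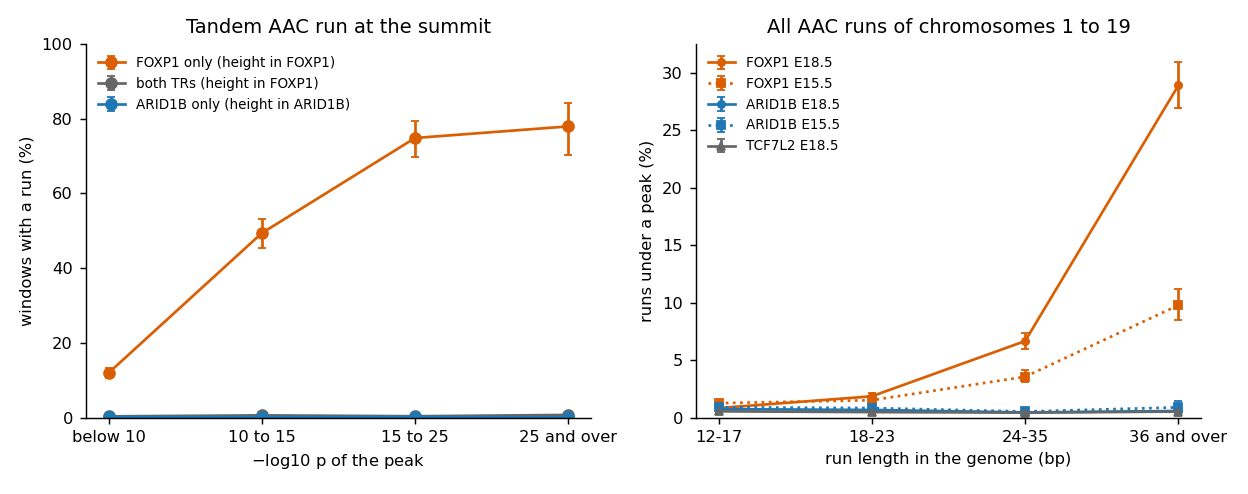
Left, share of 200 bp summit windows with an AAC run of at least 12 bases (%, 95% Wilson intervals) by −log10 p, for FOXP1-only and shared loci by FOXP1 height and ARID1B-only loci by ARID1B height. Right, share of all autosomal AAC runs under a peak (%) by run length and list. FOXP1-only loci climb from 11.9% to 77.9%, and FOXP1 at E18.5 reaches 28.9% of the longest runs while the ARID1B and TCF7L2 lists stay below 1%.

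The peaks with runs differed from the other FOXP1-only peaks in each readout given here. The 917 with a run had a median fold enrichment of 5.85 and were proximal in 5.13% of cases, and the 2380 without one had a median of 4.53 and were proximal in 29.2%. An ARID1B peak at E15.5 overlapped 1.42% of the former and 49.7% of the latter, a TCF7L2 peak at E18.5 1.963% and 59.5%, and a FOXP1 peak at E15.5 30.3% and 92.6%. The median distance to a protein-coding TSS was 77560 bp with a run and 11486 bp without. Soft-masked repeat made up a mean of 53.7% of the windows with a run and 10.1% of the others, and the part of repeat mapping in these peaks was not tested. Without FOXP1 peaks that held a run, 89.9% of FOXP1 peaks overlapped ARID1B. The strongest distal FOXP1-only loci outside Foxp2 were those printed above, near Slitrk1, which encodes a synaptic membrane protein (FOXP1 fold enrichment 30.7 at E18.5 and 12.8 at E15.5, 1055560 bp from the TSS), within Tenm2 with Wwc1 as the nearest TSS (30.4 and 10.4), near the potassium channel gene Kcnh3 (25.6 and 9.75) and near Cdc5l (25.1 and 5.19). None of these 4 overlapped an ARID1B peak at E15.5 or a TCF7L2 peak at E18.5. The Wwc1 window held its triplets in short blocks, and its longest uninterrupted run was 15 bp in the peak and under 12 bases in the window. Among proximal FOXP1-only peaks, those at Gm36243 (12.8), in an intron of Utrn, the utrophin gene (12.2), and at Psmd14 (10.7) held runs of 17, 32 and 44 bp.

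The second feature was a set of peaks on coding exons of 2 genes. Foxp2, the FOXP1 paralog mutated in a speech disorder, spans chr6:14901349-15441977, and 14 of its 18 coding blocks held the summit of an E18.5 FOXP1 peak. Coding bases make up 0.439% of that span, yet 14 of the 16 FOXP1 peaks within it had their summit there, with fold enrichments of 11.7 to 32.3 and a median of 22.0. One further peak (19.98) lay over coding blocks with its summit outside them, so that 16 of 18 blocks were under a peak. ARID1B at E18.5 had a summit in 1 of these blocks, at a fold enrichment of 3.65, and ARID1B at E15.5, FOXP1 at E15.5 and TCF7L2 at either stage had none. ARID1B peaks at E15.5 with summits outside the coding bases did overlap some of these FOXP1 peaks, with values that included 8.46 and 4.01. At the first TSS of Foxp2 the FOXP1 peak had a fold enrichment of 8.80 and lay on an ARID1B peak of 18.1. Dixdc1, a DIX-domain gene of Wnt signalling, showed the same arrangement at 6 of 22 coding blocks (6.30 to 14.5), with no summit of any other list in them. No other gene had 5 or more coding blocks with a summit in either E18.5 list of this comparison. These exon peaks were 18 of the 107 FOXP1-only peaks with a fold enrichment of 10 or more and 7 of the 16 with 20 or more. What placed signal on these exons in this list and not in the other lists was not tested.

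Of the 8 strongest FOXP1-only peaks at promoters and the 8 strongest away from them, 7 lay on these exons, 6 held AAC runs in their windows, and Wwc1, Scn2a and Unkl remained. The Scn2a summit lay on a coding exon, 138 bp from a TSS of this neuronal sodium channel gene associated with autism. Its peak had a FOXP1 fold enrichment of 21.7 at E18.5 and 50.6 at E15.5. No ARID1B peak at either stage or TCF7L2 peak at E18.5 overlapped it. Elsewhere in the Scn2a promoters ARID1B had a separate peak of 5.05, so the gene counts among those with both TRs. The Unkl peak (10.4 at E18.5, 10.1 at E15.5) overlapped ARID1B at E15.5 with a value of 3.75. Matches to the CTCF consensus (20 letters, at most 3 mismatches, both strands) marked another group of FOXP1-only peaks. They occurred in 5.71% of FOXP1-only distal windows, 2.57% of shared distal and 0.204% of ARID1B-only distal windows, against 0.0391% in the FOXP1-only offset windows and 0.0980% of all protein-coding promoters. They lay in 7.06% of distal FOXP1-only windows with a −log10 p below 10 and in 5.77% from 10 to 15. From 15 to 25 they lay in 0 of 267 (upper Wilson bound 1.42%) and above in 0 of 125 (2.98%). AAC runs took up 15.1%, 58.1%, 81.6% and 80.8% of the windows in these bands. CTCF matches were not counted apart in windows without a run, so whether they fell with height there was not tested. At shared distal loci the share was 2.44% at a FOXP1 −log10 p below 10, 3.43% from 10 to 15 and lower than either above that. The Zfp281 window printed above, with a fold enrichment of 6.44, is 1 of the FOXP1-only windows with a CTCF match.

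Shared loci were mainly promoters, and most of these promoters were CpG-rich. Windows at shared promoters had a median GC content of 66.5% and a median ratio of observed to expected CpG of 0.834, and 80.9% of them reached a ratio of 0.6. The ratio was 0.601 at FOXP1-only promoters, 0.338 at ARID1B-only promoters and 0.529 over all protein-coding promoters. The ETS core CCGGAAG, found in promoters of housekeeping genes, occurred in 12.3% of shared promoter windows, 4.32% of FOXP1-only, 1.36% of ARID1B-only and 8.10% of all promoter windows. Matches to the NRF1 consensus (12 letters, at most 1 mismatch) lay in 4.43% of shared promoters, against 2.98% of all promoters. The share was 0.405% at FOXP1-only promoters (3 of 741, 0.138 to 1.18%). At ARID1B-only promoters it was 0.112% (6 of 5351, 0.0514 to 0.244%), and these 2 intervals overlap. The shared promoter loci with the best ranks in both lists were those of Cwc22, a splicing factor (ARID1B 25.9, FOXP1 35.4), Cactin (20.3 and 18.4), Rad17 with Taf9 and Ak6 (23.8 and 14.4), Mapkapk5 (23.7 and 14.4) and Ing1 (16.0 and 16.0). The Cwc22 locus was 8358 bp wide. A pair of loci at non-coding genes of chromosome 17 (Gm26917 and AY036118) and the Gm10800 locus, 72.0% soft-masked repeat, were also among the 8. All 8 were under TCF7L2 peaks, with values of 10.8 to 39.2, and so were 99.2% of all shared promoter loci (12378 of 12482). Among distal loci the best ranks included sites near Rpusd4 (ARID1B 19.8, FOXP1 25.4), Dync1h1 (13.04 and 25.6), Fam222a (21.2 and 12.2), Axin2 (ARID1B 16.3, FOXP1 18.51, TCF7L2 26.1), Ezh2 (13.5 and 46.5), Kcnq3 (22.4 and 12.8) and Ptma (13.6 and 16.7). The Rpusd4 locus was 66.5% soft-masked repeat and lay under a TCF7L2 peak of 19.9. The Ezh2 window and that near Pcdh18 (21.6 and 14.7) held the AAC runs described above, of 37 and 39 bp.

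The TRs ranked shared loci differently at promoters and away from them. Each shared locus was given a percentile of p-value among the 20028 shared loci for each TR, with 100 the strongest, and the rank difference was FOXP1 minus ARID1B. The mean difference over all shared loci is 0 by construction, so a positive mean at proximal loci goes with a negative one at distal loci, and the scale is relative. At proximal loci the ranks had a Spearman coefficient of 0.583 (n = 12482) and at distal loci 0.205 (n = 7546), the latter 0.126 among the 8000 lowest-p distal peaks. These are descriptions over loci, which are not replicates. Both values of a locus share its base composition and mappability, and 7.86% of loci were tied at the commonest FOXP1 value. The median difference was 13.4 points at proximal loci, where FOXP1 ranked higher in 75.1%, and −18.7 points at distal loci, where it ranked higher in 32.9%. Differences over 50 points in favour of ARID1B numbered 2163, of which 1929 were distal, and in favour of FOXP1 667, of which 580 were proximal. With the loci cut into 5 equal groups by rank difference, from most in favour of ARID1B to most in favour of FOXP1, the proximal share went from 16.9% through 58.0%, 73.4% and 79.6% to 83.7%. The rank difference at E15.5, from separate libraries, followed that at E18.5 with a coefficient of 0.739 over 19603 loci (0.576 proximal, 0.797 distal). Across 5 such groups of distal loci, in the same order, CATCTG fell in 44.8%, 39.3%, 22.6%, 15.8% and 14.8% of windows and the CTCF consensus in 0, 0.530%, 1.59%, 4.57% and 6.16%. Across 5 groups of proximal loci the ETS core was found in 5.93%, 11.8%, 13.4%, 13.4% and 17.3%.

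**Figure D4:**
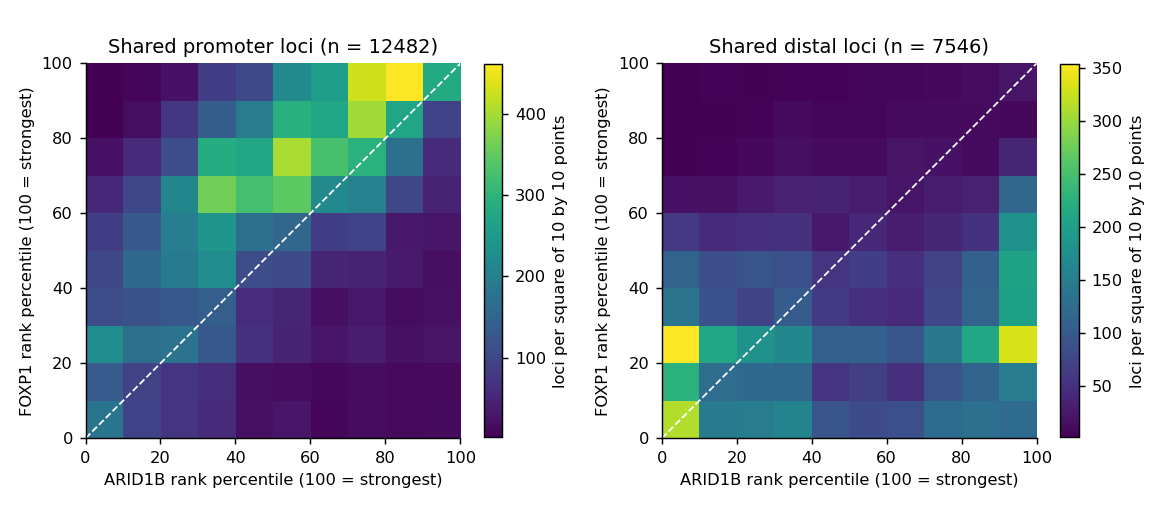
Shared loci by rank percentile among shared loci in ARID1B (x) and FOXP1 (y), 100 the strongest, at promoters (left, n = 12482) and distal sites (right, n = 7546), as counts per square of 10 by 10 points. The dashed line marks equal rank. Proximal loci gather above the line (median difference 13.4 points) and distal loci below it (median −18.7).

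The promoter loci that most favoured FOXP1 were those at Hdac9, a histone deacetylase gene (FOXP1 23.4, ARID1B 3.09), Esr1, the oestrogen receptor (14.1 and 3.23), Gm11992 (23.2 and 3.37), the coding exon of Foxp2 described above (26.2 and 3.65), Dpp7 (20.3 and 3.79), Asf1b, a histone chaperone (12.6 and 3.65), Dnajc12 (19.98 and 3.93) and Lin37 (13.1 and 3.93). Of these, Hdac9, Esr1 and Dnajc12 had AAC runs in their windows, as did 6 of the 8 distal loci most in favour of FOXP1, among them the Btn1a1 window above (FOXP1 30.1, ARID1B 3.79). The Gm11992 peak held a run of 41 bp outside its window. None of the 16 windows most in favour of ARID1B had one. Those at promoters were led by Vipr1, a VIP receptor gene (ARID1B 15.8, FOXP1 3.79), Gm47039 (11.6 and 3.65), Gm36862 (12.9 and 3.79), Zhx1 (11.6 and 3.79), 4930555F03Rik (16.3 and 4.09), A930019D19Rik (13.5 and 3.94), Chd3, a chromatin remodeller (10.4 and 3.65), and Celf2 (9.54 and 3.50). The distal loci in favour of either TR were named after their values were seen, and those in favour of ARID1B lay in introns of Tenm4 (20.1 and 3.50), Chl1 (12.8 and 3.65) and Tcf12 (14.6 and 3.79), and near Ralgps2 (14.3 and 3.65), Fgf12 (17.5 and 3.79) and Brinp3 (16.7 and 3.79). At E15.5 all 16 of these held FOXP1 peaks, with fold enrichments of 4.94 to 10.0. FOXP1 at E15.5 lay on 99.9% of all shared promoter loci and 99.0% of all shared distal loci. A FOXP1 value of 3.50 to 4.09 is close to the lowest in the list, 3.21.

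Distal loci were assigned to the nearest protein-coding gene. Of 20807 autosomal protein-coding genes, 37.7% were the nearest gene of at least 1 distal ARID1B-only locus, 20.4% of a shared distal locus and 10.2% of a FOXP1-only locus. Auts2, an autism-associated nuclear protein, was nearest to 133 distal ARID1B-only loci, against 1 FOXP1-only and 16 shared. Zfp608 had 107, Tcf4, the E-protein gene, 99, Tenm4 94, Tenm2 86, Adgrl2 84, Gse1 79 and Celf2 77. Each of these 8 genes had promoter peaks of both TRs, against 55.1% of all genes, with FOXP1 fold enrichments of 4.82 for Celf2 to 10.3 for Tcf4. FOXP1-only distal loci were most numerous at Foxp2 with 11, all of them on its coding blocks, Pou3f3, a POU factor of upper-layer neurons, with 10, and Ptprd with 9, followed by Dlg2 with 6 and Cadm2, Cdh8, Fstl5 and Kcnt2 with 5 each. Pou3f3 and Ptprd also had 52 and 60 ARID1B-only loci. These counts were not corrected for gene length or spacing.

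At promoters most genes with a peak of either TR had peaks of both. Of the 20807 genes, 55.1% (11464) had promoter peaks of both TRs, 4.35% (905) of ARID1B only, 1.56% (325) of FOXP1 only and 39% (8113) of neither. The order of the classes with 1 TR turned round with the threshold, to 1073 genes with ARID1B only and 1399 with FOXP1 only at a −log10 p of 15 in both lists, and to 177 and 3272 with equal numbers of peaks. A gene counted as bound by both where its peaks lay at different TSSs. Of the 905 genes with ARID1B only, 83.0% had a FOXP1 promoter peak at E15.5, and of the 325 with FOXP1 only, 62.5% had an ARID1B promoter peak at E15.5. Among genes with neither the shares were 8.12% for FOXP1 and 4.15% for ARID1B.

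Gene lists of cortical cell types differed in their shares. All 15 upper-layer neuron genes had both TRs at the promoter, as did 11 of 14 deep-layer and subplate genes, read against the 55.1% over all genes. Foxp1 itself had the highest FOXP1 value of the upper-layer list (13.1, ARID1B 7.57), followed by Pou3f3 (10.1 and 7.99). The deep-layer genes with ARID1B only were Fezf2, the selector of subcerebral neurons (6.17), and Pcp4 (6.03), and both had FOXP1 at E15.5 (6.20 and 5.44). Crym had neither. Of 15 radial glia and intermediate progenitor genes, 12 had both. Fabp7 (8.70), Eomes (4.63) and Tnc (3.79) had ARID1B only, again with FOXP1 at E15.5 (6.83, 5.19 and 3.92). A FOXP1 promoter peak at E15.5 was present at 83.0% (751 of 905) of all genes with ARID1B only. Its presence at the genes named here therefore does not set these lists apart.

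The interneuron list had the largest share of genes with ARID1B only among these lists. Of 14 genes, 5 (35.7%) had both TRs, against 55.1% over all genes, and 6 (42.9%) had ARID1B only, against 4.35%. The latter were the homeobox genes Dlx1 (4.35), Dlx5 (3.37) and Dlx6 (2.95), Gad2 (5.05), Sp8 (3.93) and Sp9 (4.49). All 6 had FOXP1 promoter peaks at E15.5, from 3.29 at Dlx6 to 6.58 at Dlx1, as did 83.0% (751 of 905) of all genes with ARID1B only. Lhx6, Sst and Nkx2-1 had neither. The median ARID1B value of its members with a peak was 4.21 (2.95 to 6.17), against 5.75 over all genes with one. The weakest summit stood 2.94 times over background in the ARID1B list and 3.99 times in the FOXP1 list. The shares of the gene lists were not remade at equal floors. Over all genes the ARID1B-only count was 905, 1073 at a −log10 p of 15 and 177 with equal numbers of peaks. Of 15 striatal projection neuron genes 8 had both (53.3%, near the share over all genes), 3 had ARID1B only, Penk (5.05) and Ebf1 (3.37) among them, and Drd2, Tac1, Ikzf1 and Six3 had neither. Drd1, the D1 dopamine receptor gene, had a FOXP1 fold enrichment of 59.1 at chr13:54053741-54056017, the highest of the list, beside 4.49 for ARID1B and 6.20 for FOXP1 at E15.5. That summit held 400 ChIP reads before the scaling by 0.561, which is also the ceiling if 1 read start per position and strand is kept. The highest summit of the E15.5 FOXP1 list also held 400 reads, and those of the ARID1B and TCF7L2 lists held 221 to 383. Whether the ceiling limited the height at Drd1 was not tested. Of markers of other cells in cortex and blood, 3 of 24 had both TRs, Tmem119 (6.45), Gfap (4.49), Aqp4 (4.49) and Olig2 (3.65) had ARID1B only and 17 had neither. Of 21 genes of other tissues 20 had neither and Ckm had FOXP1 only (4.24). Over all genes 39.0% had neither and 1.56% had FOXP1 only.

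Against 55.1% of all genes with both TRs and 39% with neither, ribosomal, respiratory chain and BAF genes had both in all but 1 case. All 30 ribosomal protein genes and all 29 respiratory chain genes had both, with median FOXP1 values of 10.9 and 10.3 against 8.80 over all bound genes, and median ARID1B values of 6.87 in both lists. Of 30 BAF complex genes 29 had both, led for ARID1B by Arid1a (13.5, FOXP1 10.1) and for FOXP1 by Actb (15.4, ARID1B 8.98) and Smarca4, the ATPase (14.5, ARID1B 7.71), and Phf10 had neither. Of 20 forkhead genes 15 had both, among them Foxp4 (ARID1B 13.6, FOXP1 8.65) and Foxo3 (9.12 and 14.2), and Foxc1, Foxd1, Foxa1, Foxa2 and Foxi1 had neither. Of the 102 autism-associated genes that the study listed, 97 had both, Gfap had ARID1B only, Dscam FOXP1 only (5.12), and Gigyf1, Mkx and Tek neither. The list was taken from the study, which chose its TRs from among such genes, and it is not independent evidence.

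Over all genes 55.1% had both TRs at the promoter, 4.35% ARID1B only and 1.56% FOXP1 only. Of 24 Wnt pathway genes 18 had both TRs at the promoter. Those with ARID1B only were Lef1, a nuclear effector (6.31), the antagonists Dkk1 (3.37) and Dkk3 (3.09), the agonist Rspo3 (4.35) and the target Sp5 (4.07), and the co-receptor Lrp5 had FOXP1 only (6.44). The other co-receptor, Lrp6, had a FOXP1 value of 14.4 and an ARID1B value of 4.63. Of 26 axon guidance genes 25 had both, Sema3e had ARID1B only (3.51), and together they were nearest to 670 distal ARID1B-only loci, a median of 17.5 per gene against 0 over all genes. Robo1, the Slit receptor, had 62 of them, Epha4, an ephrin receptor, 61 and the ephrin Efnb2 50. The same 26 genes had 18 distal FOXP1-only and 65 distal shared loci, and over all genes the distal counts were 40710 ARID1B only, 2559 FOXP1 only and 7551 shared. Of 24 glutamate and GABA receptor genes 22 had both, Grin2d ARID1B only (3.79) and Gabra5 FOXP1 only (4.97), with 173 distal ARID1B-only and 9 FOXP1-only loci, and of 20 voltage-gated channel genes 18 had both, Kcnh1 FOXP1 only (6.002) and Scn3a neither, with 154 and 8.

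**Figure D5:**
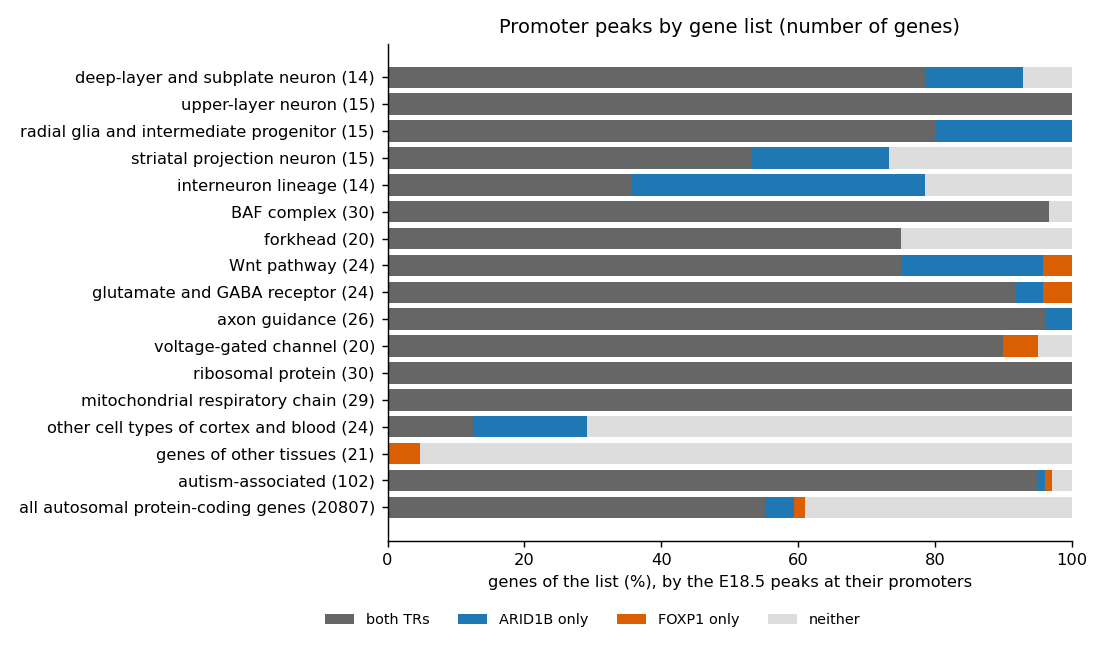
Share of genes of each list (%) with E18.5 promoter peaks of both TRs, of ARID1B only, of FOXP1 only or of neither, with the number of autosomal genes in parentheses and all 20807 protein-coding genes in the last bar. Interneuron genes have the largest ARID1B-only share of these lists (6 of 14), and all upper-layer, ribosomal and respiratory chain genes carry both. The ARID1B list reaches lower over background (2.94 times) than the FOXP1 list (3.99 times).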

How the data were processed

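ChIP-seq of ARID1B and FOXP1 in E18.5 mouse cortex gave 8 of the 24 libraries of the series, 2 ChIP and 2 input per TR. Per the study's methods and the submitters' processing notes, reads were aligned with BWA 0.7.15 to mm10 (GRCm38), filtered with SAMtools at a mapping quality of 30, merged over replicates (the labels attach each list to the first replicate, so that the depths below are of merged libraries rests on the methods), and passed to MACS2 2.2.7 at a q threshold of 0.01 with no local background and a 200 bp extension. deepTools 3.4.3 is also listed. How duplicates were treated is not stated. The deposited narrowPeak columns used were the fold enrichment (a ratio), the −log10 p and −log10 q, and the peak score, which MACS2 derived from q for the authors. Counts per library were not used here. Depth was recovered from pairs of fold enrichment and p-value, which fitted within 0.01 of −log10 p for all peaks, and gave 57.3 M reads for the smaller of the merged ARID1B ChIP and input libraries and 26.3 M for FOXP1, whose ChIP was scaled by 0.561 from 46.9 M. Depth sets the floor of each list.

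Peaks were overlapped by at least 1 base, annotated with GENCODE vM21 (the study used another release) and read in the GRCm38.p6 genome from RefSeq, with python 3.11.15, numpy 2.4.6, pandas 2.3.3, scipy 1.17.1 and matplotlib 3.10.9. Scripts were tested on simulated data. With 1 merged list per TR no test between TRs or stages was made, neighbouring peaks are not independent, and fold enrichments of different antibodies are not on 1 scale. Motifs were counted on both strands in 200 bp windows at summits (the FOXP1 summit at shared loci). Of 29 motifs counted, 24 were consensus sequences named in the study's motif table. The regions, gene lists and motifs were chosen with earlier results of these data known.

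By rule, the genes named came from the 8 peaks of highest fold enrichment in each unshared set, the 8 shared loci with the lowest sum of ranks in each region, the 8 shared promoter loci with the largest rank difference each way, the 8 genes nearest to the most distal unshared peaks, and list members with 1 TR only plus up to 4 others per list. Distal rank-difference loci, tandem repeats, coding-exon peaks and the Erbb4, Dach1 and Zfp281 windows were chosen after their values were seen. Alternatives changed the overlap rule, the thresholds, the promoter definition and the windows. A gene and a sequence are not reported here.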

Additional observations from a re-analysis of the deposited data

Results flagged for a closer look

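Peaks outside chromosomes 1 to 19 were left out of the classes and still carried signal. Chromosome X held 647 ARID1B and 338 FOXP1 peaks at E18.5, and 219 of the latter (64.8%, 59.6 to 69.7%) overlapped ARID1B, against 86.6% on the autosomes. The highest FOXP1 fold enrichment on the mitochondrial genome was 59.1, the same value, and so the same summit of 400 reads, as at Drd1. ARID1B reached 28.6 on the mitochondrial genome. In the FOXP1 list at E15.5, which defined none of the classes, 18 of the 34 coding blocks of Cux1, a homeobox gene of upper-layer neurons, held a summit, with fold enrichments of 4.05 to 11.1. All of these were noted because they lay outside the lists or chromosomes compared, and they were not set against the input libraries, which were not analysed separately here, and what gave rise to them was not tested.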

How the results depend on the processing

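Leaving out a replicate could not be run, since each list merged its replicates. No paired analysis was possible because the lists carry no replicate. Across 19 results and 87 alternatives (26 chosen after seeing the data), 28 values moved by less than the counting error or 1.5 times for counts and 59 moved further; the cause of each shift was not tested beyond what the alternative itself removes. The share of FOXP1 peaks with ARID1B (86.6%) was 83.9% where at least 50% of the shorter peak had to overlap, 67.5% with summits within 200 bp, 78.7% at a −log10 p of 15 in both lists, 56.0% with equal numbers of peaks, 85.0% above a common fold enrichment, 79.8% with both lists held to the FOXP1 floor over background and 89.9% without AAC runs. The share of ARID1B peaks with FOXP1 (32.1%) was 30.3%, 24.5%, 53.1% (equal numbers), 34.3% (common fold enrichment) and 39.8% (FOXP1 floor). Promoter shares at a −log10 p of 15, equal numbers and the FOXP1 floor were 13.3%, 6.93% and 9.72% for ARID1B only, 70.1%, 45.4% and 28.5% for FOXP1 only, and 90.4%, 65.4% and 64.2% for both. At a common fold enrichment they were 10.97% and 24.04% for ARID1B only and FOXP1 only. With 1000 bp upstream they were 8.46%, 18.7% and 60.4%, and with 1000 bp either side 13.5%, 25.8% and 64.0%. Without AAC runs that of FOXP1 only was 29.2%. Genes with ARID1B only (905) fell to 177 with equal numbers, and genes with FOXP1 only (325) rose to 1399 at a −log10 p of 15 and 3272 with equal numbers, above ARID1B only in both cases (1073 and 177). FOXP1 at E15.5 lay on 89.5%, 85.3%, 60.7% and 66.9% of ARID1B-only loci (58.0%) at a −log10 p of 15, equal numbers, a common fold enrichment and the FOXP1 floor, and ARID1B at E15.5 on 80.7%, 76.8%, 41.0% and 52.7% of FOXP1-only loci (36.3%), and on 49.7% without AAC runs. The rank coefficient was 0.41 among the 10000 lowest-p peaks at promoters and 0.126 among the 8000 lowest-p distal peaks, and that of the rank differences was 0.576 at promoters and 0.797 at distal loci. In 100 bp windows the forkhead core lay in 1.43% of FOXP1-only, 2.10% of ARID1B-only and 1.24% of shared loci, and in 3.51% of distal shared loci at 200 bp. AAC runs in 100 bp windows, and of at least 18 bases, lay in 25.1% and 26.2% of FOXP1-only, 0.0695% and 0.0282% of ARID1B-only and 0.359% and 0.369% of shared loci. They lay in 34.0% of distal FOXP1-only loci and in 75.8% of the 446 FOXP1-only loci of the uncut lists with a −log10 p of 15 or more (the class remade at that threshold has 2115 peaks and at most 390 runs), and in 0.994% of distal shared loci.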
